A study of Mus musculus with 8 samples.

Results

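The genes of the peptide loading complex and of the transporter that feeds it were followed through 8 mouse RNA-seq libraries. They are Tap1, Tap2, Tapbp, Tapbpl, Erap1, Calr and Pdia3, and they were taken by symbol from the deposited table of raw read counts, where these 7 genes were 7 of 23478 lines that name a gene. All 7 had enough reads to be tested.

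MHC class I molecules display peptides of the cell's own proteins to CD8 T cells. Peptides cut by the proteasome are pumped into the endoplasmic reticulum (ER) by TAP, a transporter built of a TAP1 and a TAP2 chain, and are trimmed there by the aminopeptidase ERAP1. Tapasin (Tapbp) bridges TAP to an empty class I molecule and, with the disulphide isomerase ERp57 (Pdia3) and the lectin chaperone calreticulin (Calr), holds it until a well-fitting peptide binds; TAPBPR (Tapbpl) is a tapasin relative that edits peptides outside the complex. Interferon-gamma is a classical inducer of this pathway in many cell types, whereas calreticulin and ERp57 also serve the folding of glycoproteins in general.

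The study compared disseminated cancer cells (DCC) with cells of breast tumours and asked how a CD4 Th1 type of immune response bears on their expression. DCC came from the bone marrow of mice whose breast cancer had metastasised spontaneously, and were studied after interferon-gamma (DCC IFN-gamma) or without it (DCC control). The TUBO group is an untreated breast cancer cell line, known to derive from a mammary carcinoma of a BALB-neuT mouse, and so a single line. The early lesion group holds untreated cancer cells, directly isolated from an early mammary tumour lesion, whose sample titles carry the term neuT. Each group had 2 libraries, labelled as biological replicates, and the labels give the genotype of every library as WT. How much interferon-gamma was given and for how long, the age and strain of the mice, and whether replicates came from separate mice are not stated in the labels, so p-values measure the spread between these libraries, which may be technical. The protocol text shared by all samples also lists TNF-alpha and anti-HER2 antibodies, but no library used here is labelled with them.

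Each library held 15432210 to 30168475 reads on genes, and reads outside genes took 18.3% to 49.2% of all reads counted, with the largest shares in replicate 1 of DCC control (49.2%) and replicate 2 of early lesion (44.1%). The cell type labels were set against marker genes. In DCC libraries the epithelial marker Epcam was at 0 and 0 CPM (reads on the gene scaled to a common normalised library size) after interferon-gamma and at 0 and 0.158 CPM in DCC control, against 1034 and 1089 CPM in TUBO and 836 and 794 CPM in early lesion; Cdh1, Krt8 and Krt18 also stayed near 0 in DCC libraries. All 12 epithelial markers summed to 35.4 and 39.5 CPM in DCC IFN-gamma and 27.3 and 28.5 CPM in DCC control, against 5986 and 6365 CPM in TUBO and 3411 and 3221 CPM in early lesion. Most of the sum in DCC was Erbb2, the gene of the HER2 receptor, which averaged 37.0 CPM in DCC IFN-gamma, 22.3 CPM in DCC control, 252 CPM in TUBO and 242 CPM in early lesion. The DCC libraries thus lacked or nearly lacked the other epithelial markers that their label as breast cancer cells would call for. The 9 fibroblast markers summed to 713 and 1171 CPM in DCC IFN-gamma and 7456 and 8593 CPM in DCC control, against 8.43 to 18.02 CPM in the other 4 libraries. The 5 osteoblast markers summed to 133 and 230 CPM in DCC IFN-gamma and 2320 and 2669 CPM in DCC control. In TUBO they summed to 127 and 119 CPM, near DCC IFN-gamma replicate 1, and in early lesion to 29.6 and 24.0 CPM.

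Macrophage and monocyte markers moved with the treatment as well. The 15 markers found in the table (of 16) summed to 1682 and 1231 CPM in DCC IFN-gamma, 135 and 133.5 CPM in DCC control, 79.4 and 111 CPM in TUBO, and 104 and 113 CPM in early lesion, and 12 of 15 were called higher in DCC IFN-gamma than in DCC control. Csf1r, the receptor that defines the macrophage lineage, had 193 and 147 CPM in DCC IFN-gamma and 18.5 and 16.9 CPM in DCC control. In TUBO Csf1r had 0.034 and 0 CPM, and in early lesion 0 and 0.624 CPM. Of the 15 markers, 5 and 12 had no reads in TUBO and 10 and 2 in early lesion, against 0 and 1 in DCC control. In DCC control 11 were called higher and 1 lower than in TUBO (22.1% and 19.9% of all genes tested). Against early lesion, 10 were called higher and 1 lower (19.1% and 18.7%). The 9 pan-leukocyte markers summed to 594 and 538 CPM in DCC IFN-gamma and 72.3 and 64.4 CPM in DCC control, with 4 of 9 called higher. Their sums were 903 and 819 CPM in early lesion and 384 and 298 CPM in TUBO, so a high sum was not particular to DCC IFN-gamma. Of the 9 markers, 7 had no reads in early lesion replicate 1, and 5 and 8 had none in TUBO replicates 1 and 2. By single markers, 8 of 9 were called higher and 1 lower in DCC IFN-gamma than in early lesion (22.7% and 19.2% of all genes tested). Against TUBO, 8 were also called higher and 1 lower (24.4% and 19.6%). The part of these cell type differences in the results on the loading complex was not tested. In bulk libraries, fewer cells of a type and less RNA per cell cannot be told apart.

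Promoter windows from RefSeq (GRCm38.p6, 250 bases before to 50 bases after a transcript start) were present for 5 of the 7 genes, namely Tap1, Tapbp, Erap1, Calr and Pdia3. They were searched on both strands for elements known from interferon and ER stress responses, and 30 bases on the gene's strand are shown for the matches in Erap1, which was called higher after interferon-gamma, and in Calr, which was not, each beside other genes of the pathway that hold the same element. The first pair has the core of an interferon-stimulated response element, GAAA and GAAA with 2 bases between them, in capitals; in Erap1 it lies on the minus strand, where it reads as TTTC repeats.
Erap1 (chr13:74639839-74639868, +): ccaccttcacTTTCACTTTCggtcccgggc
B2m (chr2:122147538-122147567, +): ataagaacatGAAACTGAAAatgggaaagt
The Erap1 match spanned bases -4 to 6 around the transcript start, and the match in B2m, the class I light chain shown for comparison, spanned bases -139 to -130. This core was found in 3.44% of 32851 promoter windows. It had no match in the windows of Tap1 and Tapbp, which were also called higher after interferon-gamma, nor in those of Psmb8, Psmb9 and H2-K1, nor in those of Calr and Pdia3. The second set has the ER stress response element, CCAAT and CCACG with 9 bases between them, in capitals, again on the minus strand in Calr.
Calr (chr8:84847069-84847098, -): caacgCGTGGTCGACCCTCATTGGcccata
Canx (chr11:50325794-50325823, -): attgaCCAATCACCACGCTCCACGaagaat
Hspa5 (chr2:34772020-34772049, +): cttcaCCAATCGGAGGCCTCCACGacgggg
Canx (calnexin) and Hspa5 (BiP) are the membrane-bound and the general ER chaperone, and this element was found in 0.119% of windows. In Calr it spanned bases -162 to -144, in Canx bases -145 to -127 and in Hspa5 bases -65 to -47.

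Of the other motifs searched, CCAAT was found in the windows of Tap1, Tapbp, Calr and Pdia3 and in 37.4% of all windows; in Calr 1 of its 2 CCAAT matches is part of the ER stress element. The gamma-activated site core TTCNNNGAA (8.3% of windows), GAAA and GAAA with 3 bases between them (2.75%) and the kappa B core GGG and TTCC with 3 bases between them (5.56%) had no match in these 5 windows. Among the comparison genes, Psmb8 had the gamma-activated site core from base -97 and GAAA repeats with 3 bases between them from base -248. B2m had the kappa B core from base -126. Such a match is a description of letters and not a shown binding site, and the absence of one says only that these letters are not in the window.

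After interferon-gamma, 5 of the 7 genes were called higher in DCC than in DCC control: both transporter chains, tapasin, its relative TAPBPR and the trimming enzyme, by 9.15-fold to 29.4-fold. The chaperone calreticulin and the isomerase ERp57 did not pass the test. None of the 7 was called lower. The macrophage markers, at 1682 and 1231 CPM against 135 and 133.5 CPM, were higher in the same libraries. Calls are genes with an adjusted p (Benjamini-Hochberg) under 0.05 in edgeR's quasi-likelihood test over 17069 genes, of which 12.6% were called higher and 8.83% lower in this comparison. The median log2 fold change was 3.42 over the 7 genes and -0.20 over all genes tested. For the count of 0 lower calls, edgeR also gave 0 at an unadjusted p under 0.05, and DESeq2 gave 0.

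**Figure D1:**
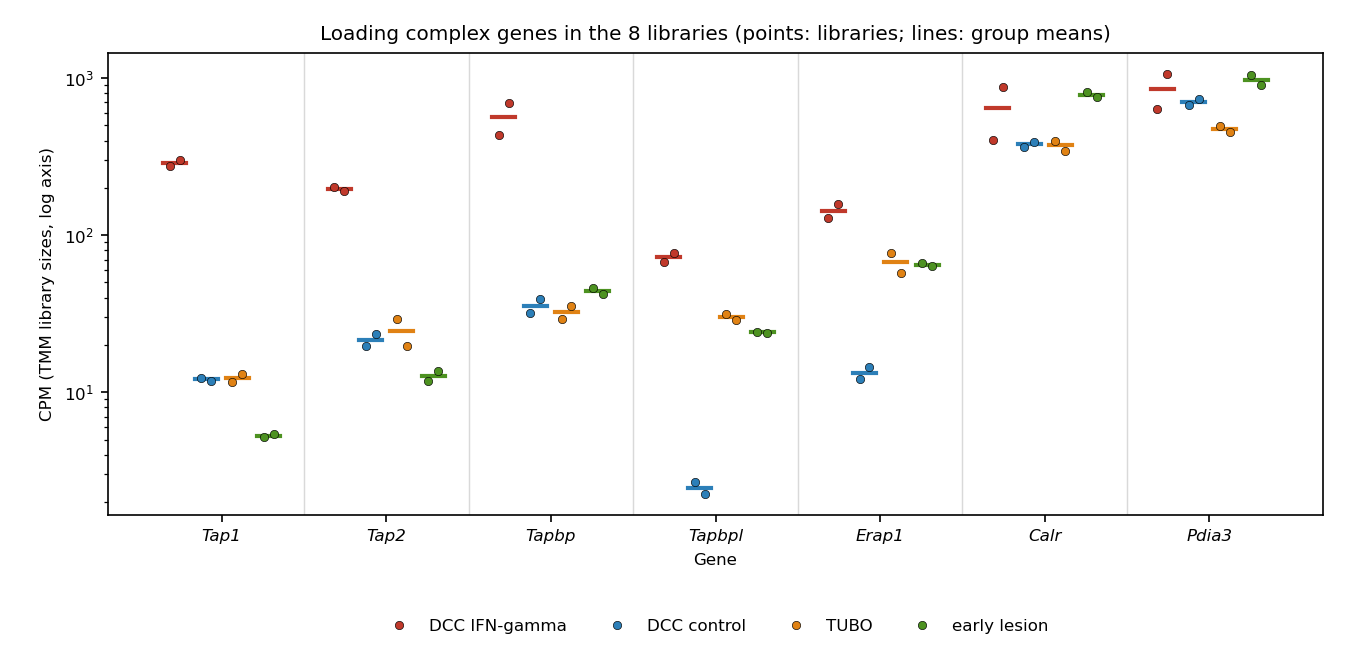
CPM of the 7 genes on a log axis in the 4 groups, with 1 point per library and a line at each group mean. In DCC IFN-gamma, Tap1, Tap2, Tapbp, Tapbpl and Erap1 stand above every other library, while for Calr (404 and 879.5 CPM) and Pdia3 (634 and 1065 CPM) the 2 DCC IFN-gamma libraries lie apart from each other.

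Tap1 encodes the first chain of the transporter and lies on chromosome 17 (GRCm38, bases 34187553 to 34197225, plus strand, 9 exons in its longest transcript). It had 275 and 302 CPM in DCC IFN-gamma, 12.2 and 11.9 CPM in DCC control, 11.6 and 13.2 CPM in TUBO, and 5.21 and 5.397 CPM in early lesion. Both DCC IFN-gamma libraries stood far above the other 6, and the early lesion libraries were lowest, with no overlap with any other group. In DCC IFN-gamma against DCC control its log2 fold change was 4.58 ± 0.17 (SE), 23.9-fold, with an edgeR adjusted p of 4.91e-07.

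Tap2, the second chain, follows 6302 bases beyond the end of Tap1 (bases 34203527 to 34216321, plus strand, 12 exons). It had 203 and 192 CPM in DCC IFN-gamma, 19.7 and 23.5 CPM in DCC control, 29.2 and 19.8 CPM in TUBO, and 11.8 and 13.7 CPM in early lesion. DCC control and TUBO overlapped, and early lesion was again lowest. The log2 fold change of DCC IFN-gamma over DCC control was 3.19 ± 0.22, 9.15-fold, with an edgeR adjusted p of 9.25e-06.

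The proportion of the RNA of the 2 chains also differed. Protein was not measured in these libraries. Per kilobase of merged exons, the ratio of Tap1 to Tap2 was 0.932 and 1.09 in DCC IFN-gamma, 0.430 and 0.349 in DCC control, 0.273 and 0.460 in TUBO, and 0.304 and 0.271 in early lesion. The DCC IFN-gamma libraries thus had nearly equal RNA levels of both genes per length, and all other libraries had more Tap2 than Tap1 RNA. With the longest transcript as length, DCC IFN-gamma averaged 73.8 CPM per kb for Tap1 and 57.5 CPM per kb for Tap2. With 2 libraries a group, an exact permutation test of such a ratio could not pass the threshold, and none was run.

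Tapbp encodes tapasin (chromosome 17, bases 33915899 to 33929292, plus strand, 8 exons). It had 437 and 693 CPM in DCC IFN-gamma, 31.8 and 39.0 CPM in DCC control, 29.2 and 35.3 CPM in TUBO, and 46.4 and 42.2 CPM in early lesion. DCC IFN-gamma was above all others, DCC control and TUBO overlapped, and early lesion lay just above both. The 2 DCC IFN-gamma libraries differed more from each other than those of the other groups did. The log2 fold change of DCC IFN-gamma over DCC control was 3.99 ± 0.25, 15.9-fold, with an edgeR adjusted p of 4.75e-06.

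Tapbpl, encoding TAPBPR (chromosome 6, bases 125223933 to 125231860, minus strand, 7 exons), had the largest fold change of the 7 and the lowest starting level. It had 67.9 and 76.6 CPM in DCC IFN-gamma, 2.68 and 2.26 CPM in DCC control, 31.4 and 28.99 CPM in TUBO, and 24.2 and 24.0 CPM in early lesion. DCC control was below every other library, resting on 44 and 57 reads against 1853 and 1837 reads in DCC IFN-gamma. The log2 fold change of DCC IFN-gamma over DCC control was 4.88 ± 0.21, 29.4-fold, with an edgeR adjusted p of 7.66e-07.

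Erap1 encodes the ER aminopeptidase that trims peptides to class I length (chromosome 13, bases 74639568 to 74693201, plus strand, 19 exons). It had 128 and 157 CPM in DCC IFN-gamma, 12.1 and 14.5 CPM in DCC control, 76.7 and 57.8 CPM in TUBO, and 66.4 and 63.6 CPM in early lesion. As with Tapbpl, DCC control was lowest, and here TUBO and early lesion overlapped. The log2 fold change of DCC IFN-gamma over DCC control was 3.42 ± 0.21, 10.7-fold, with an edgeR adjusted p of 4.03e-06.

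Calr encodes calreticulin (chromosome 8, bases 84841850 to 84846934, minus strand, 9 exons). It had 404 and 879.5 CPM in DCC IFN-gamma, 366 and 390.4 CPM in DCC control, 399.6 and 346 CPM in TUBO, and 810.0 and 757 CPM in early lesion. DCC IFN-gamma replicate 1 lay close to DCC control while replicate 2 lay above every other library. The log2 fold change of DCC IFN-gamma over DCC control was 0.76 ± 0.31 and did not pass (edgeR adjusted p = 0.125). Here 1 library decided the call: without DCC IFN-gamma replicate 1 it was 1.22 (adjusted p = 4.21e-05), without replicate 2 it was 0.14, and DESeq2 on all libraries gave an adjusted p of 0.0426.

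Pdia3 encodes ERp57 (chromosome 2, bases 121413775 to 121438687, plus strand, 13 exons). It had 634 and 1065 CPM in DCC IFN-gamma, 677 and 733 CPM in DCC control, 495 and 452 CPM in TUBO, and 1052 and 906 CPM in early lesion. The DCC IFN-gamma libraries lay on either side of DCC control. The log2 fold change was 0.27 ± 0.23 (edgeR adjusted p = 0.416), 0.60 without DCC IFN-gamma replicate 1, where it was called (adjusted p = 0.019), and -0.11 without replicate 2.

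Reads of overlapping genes may bear on some of these values, since the strand setting of the counting is not given in the sources used here. In the GENCODE M21 gene models Tap1 shares 212 exonic bases with Psmb9 on the opposite strand and Tap2 shares 533 and 165 with the noncoding genes Gm15821 and Gm20496 on the opposite strand. Tapbp shares 149 with Zbtb22 on the same strand and 904 with the antisense gene Gm19412, Erap1 shares 834 with Cast on the opposite strand and Pdia3 shares 18 with Catsper2. Cast had 261 and 318 CPM in DCC IFN-gamma, 161 and 164 CPM in DCC control, 96.1 and 81.0 CPM in TUBO, and 202 and 181 CPM in early lesion. Whether the overlap with Cast added reads to the Erap1 counts, took reads from them or did neither was not tested.

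Levels per length set the 5 genes called higher beside the chaperones. In DCC IFN-gamma, Pdia3 averaged 271, Calr 223, Tapbp 156, Tap1 52.7, Tap2 52.3, Tapbpl 30.7 and Erap1 19.6 CPM per kb of merged exons. In DCC control, Pdia3 averaged 225 and Calr 131 CPM per kb, and the other 5 genes ranged from 1.05 CPM per kb (Tapbpl) to 9.76 CPM per kb (Tapbp). The lower of the 2 chaperones stood 1.43-fold above the highest of the other 5 genes in DCC IFN-gamma, against 13.5-fold in DCC control, 10.1-fold in TUBO and 22.3-fold in early lesion.

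The same shift was seen within each library. The ratio of Calr to Tapbp per kb was 1.16 and 1.60 in DCC IFN-gamma, 14.5 and 12.6 in DCC control, 17.2 and 12.3 in TUBO, and 22.004 and 22.6 in early lesion. The ratio of Pdia3 to Tapbp was 1.68 and 1.78 in DCC IFN-gamma, 24.6 and 21.7 in DCC control, 19.6 and 14.8 in TUBO, and 26.2 and 24.8 in early lesion. Tapbp was thus closest in RNA level to both Calr and Pdia3 in DCC IFN-gamma. In the ratio to Pdia3 the 2 libraries lay close together even though each gene alone differed between them.

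The RNA of tapasin and of its relative kept different proportions in the 4 groups. The ratio of Tapbp to Tapbpl per kb was 4.17 and 5.86 in DCC IFN-gamma, 7.71 and 11.2 in DCC control, 0.603 and 0.789 in TUBO, and 1.24 and 1.14 in early lesion. Tapbp exceeded Tapbpl several-fold in all 4 DCC libraries, was close to it in early lesion and lay below it in both TUBO libraries. The ratio of Calr to Pdia3 was 0.694 and 0.900 in DCC IFN-gamma, 0.589 and 0.581 in DCC control, 0.879 and 0.833 in TUBO, and 0.839 and 0.911 in early lesion, a narrow range beside the others.

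**Figure D2:**
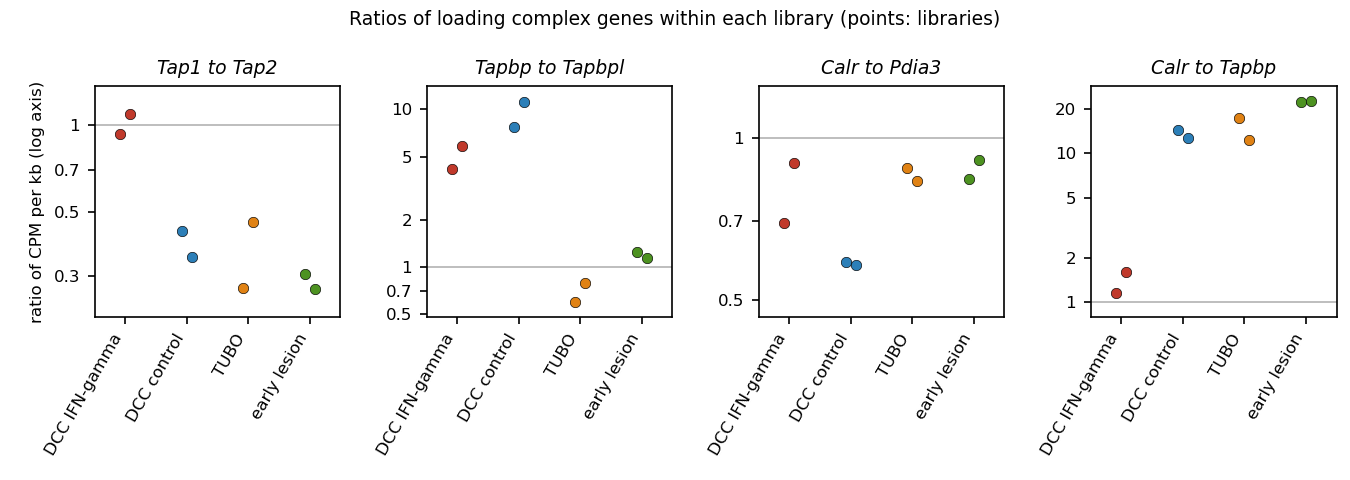
Ratios of pairs of loading complex genes in CPM per kb of merged exons, on a log axis, with 1 point per library and a line at a ratio of 1. The Calr to Tapbp ratios of DCC IFN-gamma are 1.16 and 1.60, below the 12.3 to 22.6 of the other libraries.

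DCC control cells were next compared with early lesion cells. The transporter chains were higher in DCC control, while TAPBPR, the trimming enzyme and calreticulin were lower, and tapasin and ERp57 did not pass. Of the 7 genes, 2 were called higher and 3 lower, in a comparison in which 19.1% of all genes tested were called higher and 18.7% lower. The median log2 fold change was -0.47 over the 7 genes and 0.23 over all genes tested.

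Tap1 was 2.27-fold higher in DCC control (log2 fold change 1.18 ± 0.16, edgeR adjusted p = 1.96e-04). Tap2 was 1.69-fold higher (0.76 ± 0.21, adjusted p = 0.0145), but missed the threshold when DCC control replicate 2 (adjusted p = 0.089) or early lesion replicate 1 (0.114) was dropped. Tapbpl was 9.82-fold lower in DCC control (-3.30 ± 0.20, adjusted p = 7.70e-07) and Erap1 4.86-fold lower (-2.28 ± 0.20, adjusted p = 8.39e-06). These 2 differences exceeded the spread between libraries by the widest margin of the 7 genes.

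Calr was 2.07-fold lower in DCC control than in early lesion (log2 fold change -1.05 ± 0.31, edgeR adjusted p = 0.0283). Its call did not survive the loss of any 1 of the 4 libraries compared, with adjusted p of 0.0623 to 0.135. Tapbp (-0.32 ± 0.22, adjusted p = 0.315) and Pdia3 (-0.47 ± 0.23, adjusted p = 0.148) did not pass, although Pdia3 was called when only these 2 groups were fitted (adjusted p = 0.00641).

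Against the TUBO line, the pattern in DCC control was narrower. Both transporter chains, tapasin and the chaperones were not called, and TAPBPR and the trimming enzyme were lower in DCC control. Of the 7 genes, 0 were called higher and 2 lower, where 22.1% of all genes tested were called higher and 19.9% lower, and the median log2 fold change was -0.04 over the 7 genes and 0.37 over all genes tested. At an unadjusted p under 0.05 edgeR had 1 gene higher, and DESeq2 called 1 higher, in both cases Pdia3.

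Tapbpl was 12.3-fold lower in DCC control than in TUBO (log2 fold change -3.62 ± 0.20, edgeR adjusted p = 3.76e-07) and Erap1 5.03-fold lower (-2.33 ± 0.20, adjusted p = 6.73e-06). The log2 fold changes of the genes that did not pass were -0.04 ± 0.15 for Tap1, -0.18 ± 0.20 for Tap2, 0.14 ± 0.22 for Tapbp and 0.02 ± 0.31 for Calr. The sign of the Tap1 value turned under 4 other settings of scaling, filter or tool, to between 0.01 and 0.07. Pdia3 had 0.57 ± 0.23 (adjusted p = 0.0729) and was called with upper quartile factors (adjusted p = 0.027), in DESeq2 (0.0142) and when only these 2 groups were fitted (0.00529).

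TUBO and early lesion, both rich in epithelial markers, differed in the transporter and the chaperones. Of the 7 genes, 2 were called higher in TUBO, where 11.4% of all genes tested were called, and 2 lower, where 12.7% were, and the median log2 fold change was 0.05 over the 7 genes and -0.27 over all genes tested. Tap1 was 2.33-fold higher in TUBO (log2 fold change 1.22 ± 0.16, edgeR adjusted p = 3.99e-04) and Tap2 1.92-fold higher (0.94 ± 0.21, adjusted p = 0.00809). Calr was 2.10-fold lower in TUBO (-1.07 ± 0.31, adjusted p = 0.0391) and Pdia3 2.07-fold lower (-1.05 ± 0.23, adjusted p = 0.00887). Tapbpl (0.33 ± 0.17), Erap1 (0.05 ± 0.19) and Tapbp (-0.46 ± 0.22) did not pass, and Tapbp was called when only these 2 groups were fitted (adjusted p = 0.0258).

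Only the Tap1 call among these 4 held under every alternative run. The Tap2 call was lost without early lesion replicate 1 (adjusted p = 0.0623) and without TUBO replicate 1 (0.131), and the Pdia3 call without TUBO replicate 2 (0.0762). The Calr call was lost with a replicate block (0.0544) and on leaving out any 1 library of DCC control, TUBO or early lesion (0.064 to 0.22).

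Set against the tumour groups, DCC IFN-gamma cells had higher levels of both transporter chains, tapasin, TAPBPR and the trimming enzyme. These comparisons share the DCC IFN-gamma libraries with the first one and are given side by side, not as support for it. Against early lesion, 5 of the 7 genes were called higher (22.7% of all genes tested) and 0 lower (19.2%), with 0 lower at an unadjusted p under 0.05 in edgeR and in DESeq2, and the median log2 fold change was 1.58 over the 7 genes and -0.18 over all genes tested. Against TUBO, 6 were called higher (24.4%) and 0 lower (19.6%), again with 0 lower at an unadjusted p under 0.05 in edgeR and in DESeq2, and with medians of 1.26 over the 7 genes and 0 over all genes tested.

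Tap1 was 54.4-fold higher in DCC IFN-gamma than in early lesion and 23.3-fold higher than in TUBO. Tap2 was 15.5-fold higher than in early lesion and 8.08-fold higher than in TUBO, and Tapbp 12.7-fold and 17.5-fold, with edgeR adjusted p of 1.16e-08 to 1.82e-06 over these 6 tests. Tapbpl was 2.997-fold higher than in early lesion (log2 fold change 1.58 ± 0.18, edgeR adjusted p = 4.50e-05) and 2.39-fold higher than in TUBO (1.26 ± 0.17, adjusted p = 2.05e-04). Erap1 was 2.20-fold higher than in early lesion (1.13 ± 0.19, adjusted p = 6.49e-04) and 2.12-fold higher than in TUBO (1.09 ± 0.19, adjusted p = 8.48e-04). For TAPBPR and the trimming enzyme the treated cells were therefore a few-fold above the tumour groups, while untreated DCC were well below them.

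For the chaperones, Pdia3 was 1.79-fold higher in DCC IFN-gamma than in TUBO (log2 fold change 0.84 ± 0.23, edgeR adjusted p = 0.0138), which missed the threshold when replicate 2 of DCC IFN-gamma (0.0617) or of TUBO (0.09) was dropped. Calr against TUBO was 0.78 ± 0.31 (adjusted p = 0.0742) and was called in DESeq2 (0.012). It too rested on 1 library, with 1.24 (adjusted p = 1.09e-05) without DCC IFN-gamma replicate 1 and 0.13 without replicate 2. Against early lesion neither passed, with -0.29 ± 0.31 for Calr and -0.20 ± 0.23 for Pdia3. Both turned on 1 library: without DCC IFN-gamma replicate 2 they were called lower at -0.998 and -0.67, and without replicate 1 they were 0.17 and 0.12.

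**Figure D3:**
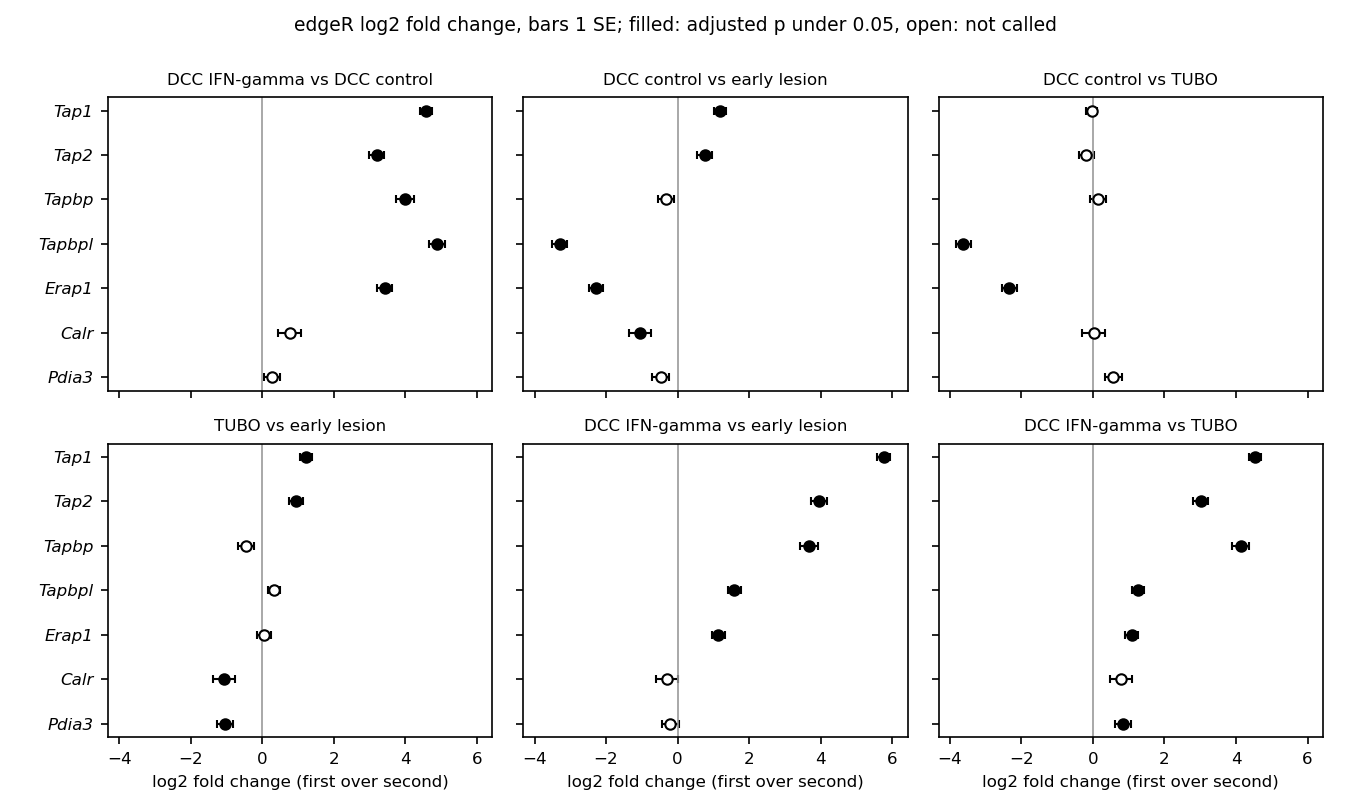
Log2 fold change of the 7 genes in the 6 comparisons, first-named group over second, with bars of 1 SE, filled points where the edgeR adjusted p was under 0.05 and open points elsewhere. Tapbpl and Erap1 lie right of 0 in DCC IFN-gamma against DCC control (4.88 and 3.42) and left of 0 in DCC control against early lesion (-3.30 and -2.28) and TUBO (-3.62 and -2.33).

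Ordered by level, DCC IFN-gamma came first for the 5 called genes. Tap1 and Tap2 then had TUBO and DCC control, which did not differ beyond their spread, and early lesion last. Tapbpl and Erap1 had TUBO and early lesion, which did not differ beyond their spread, and DCC control last. Tapbp had early lesion, DCC control and TUBO with no neighbours in this order called. For Calr and Pdia3 the order was early lesion, DCC IFN-gamma, DCC control and TUBO, again with no neighbours called.

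Some of the 7 genes were close in pattern. Over the 8 libraries, which share 4 groups, Pearson's r of log2 CPM was 0.99 for Tap1 with Tap2, 0.99 for Tapbpl with Erap1 and 0.89 for Calr with Pdia3, as a description. It was 0.94 for Tap1 with Tapbp, 0.93 for Tap2 with Tapbp, 0.53 for Tap1 with Tapbpl, 0.55 for Tap1 with Erap1 and 0.07 for Tap1 with Calr. Among all other genes tested, those most like Tap1 included Errfi1 (0.997) and Myof (0.994), and those most like Tap2 included Myof (0.991) and Errfi1 (0.989). For Tapbp they included Spty2d1 (0.993) and Enc1 (0.990). For Tapbpl they were Dlat, Pomp, a proteasome assembly factor, and Stk10 (0.987, 0.986 and 0.986), for Erap1 Creb5, Stk10 and Tgoln1 (each 0.984), for Calr Fyco1 (0.973), Zfp954 (0.969) and Myadm (0.968), and for Pdia3 Abracl (0.983), Aldh2 (0.982) and Tubb5 (0.968).

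The neighbours of the transporter genes on chromosome 17 also differed after interferon-gamma. Tap1, Psmb8 and Tap2 follow each other on the plus strand, and Psmb9 starts 211 bases from the start of Tap1 on the other strand. Within 50 kb on either side, all 8 genes tested were called higher in DCC IFN-gamma than in DCC control, where 12.6% of all genes tested were. The 8 include both transporter chains, already described above. Also among them were H2-DMb2 (log2 fold change 5.53), H2-DMb1 (4.07), H2-Ab1 (3.36) and H2-DMa (1.40) of the class II pathway. H2-Ob had too few reads. These neighbours were chosen by position after values were seen, and the part of macrophages, which carry class II genes, in their change was not tested. The calls of H2-DMb2 (edgeR adjusted p = 0.11) and H2-DMb1 (0.0665) were lost without DCC IFN-gamma replicate 2, those of H2-DMa (0.0501) and H2-DMb1 (0.0593) without DCC control replicate 1, and that of H2-Ab1 (0.0547) without DCC control replicate 2.

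Around Tapbp fewer neighbours were called. Of its 8 neighbours within 50 kb, Daxx (log2 fold change 2.01 ± 0.34, edgeR adjusted p = 0.00312) was called higher. The 2 DCC IFN-gamma libraries differed for Daxx, with 104 and 47.2 CPM, and its log2 fold change was 1.33 to 2.51 on leaving out a library. Kifc1, Zbtb22, Rgl2, Wdr46, B3galt4, Rps18 and Vps52 were not called, with log2 fold changes of -0.90 to 0.23. Among all genes tested, 12.6% were called higher, so the count around Tapbp is near that background. Zbtb22, which shares exonic bases with Tapbp, had -0.68 ± 0.26 (adjusted p = 0.0886).

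**Figure D4:**
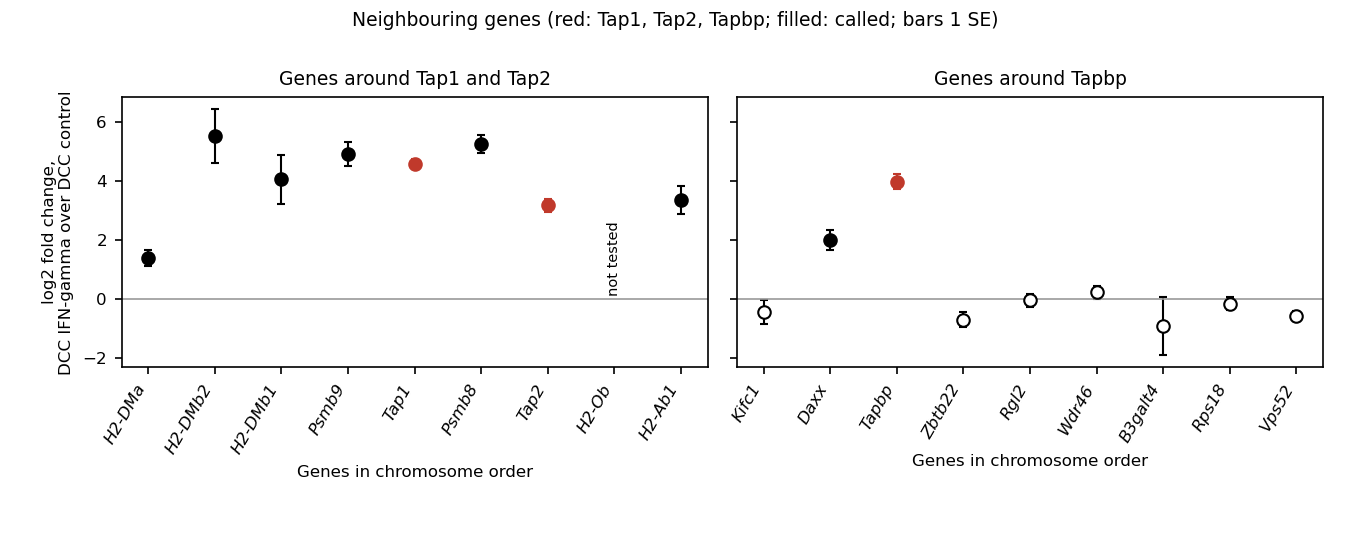
Log2 fold change of DCC IFN-gamma over DCC control for genes in chromosome order within 50 kb of Tap1 and Tap2 and of Tapbp, with bars of 1 SE and filled points where the edgeR adjusted p was under 0.05. Every tested gene around Tap1 and Tap2 is filled, and around Tapbp only Tapbp (3.99) and Daxx (2.01) are.

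The rest of the class I pathway was read from lists chosen with earlier results of these data known. Of 10 class I molecules, 6 were tested and 6 of 6 were called higher in DCC IFN-gamma than in DCC control, with a median log2 fold change of 3.02. Among all genes tested, 12.6% were called higher in this comparison. H2-T23, a class Ib molecule, had 5.50 ± 0.40, H2-Q4 had 3.54 and the classical heavy chains H2-D1 and H2-K1 had 3.10 ± 0.16 and 2.94 ± 0.24, all with reads that near-identical relatives may share. B2m, the light chain without which class I is not stable, had 5668 and 9007 CPM in DCC IFN-gamma and 1377 and 1458 CPM in DCC control (2.37 ± 0.26). H2-L, H2-Q6, H2-Q7 and H2-T22 had too few reads to be tested.

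All 5 genes of the immunoproteasome and its activator, which cut and release peptides in the cytosol, were called higher in DCC IFN-gamma, with a median log2 fold change of 3.98. Psmb8 had 5.26 ± 0.30, Psmb9 4.93 ± 0.42 and Psmb10 3.98 ± 0.22. Of 11 regulators of class I genes, 8 were called higher and 0 lower (0 at an unadjusted p under 0.05 and 0 in DESeq2), with a median of 2.47. Among them, the interferon-induced factor Irf1 had 6.09 ± 0.25 and Stat2, which carries interferon signals to the nucleus, had 5.28 ± 0.36. Both lists stand beside 12.6% of all genes tested called higher and 8.83% lower.

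Nlrc5, the class I transactivator, was highest in DCC IFN-gamma, followed by DCC control. It had 128 and 127 CPM in DCC IFN-gamma and 20.6 and 25.3 CPM in DCC control. In TUBO it had 0.448 and 0.305 CPM (13 and 8 reads), and in early lesion 0.890 and 1.61 CPM (28 and 36 reads). Its log2 fold change was 2.47 ± 0.23 in DCC IFN-gamma over DCC control and 5.90 ± 0.32 in DCC control over TUBO, a comparison in which neither transporter chain was called. H2-K1 in DCC control over TUBO had 0.52 ± 0.22 and was not called, while B2m had 1.35 ± 0.25 and was.

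TUBO cells had the immunoproteasome subunit Psmb8 at 47.6 and 56.6 CPM, against 1.30 and 2.05 CPM in early lesion (log2 fold change 4.98 ± 0.30, edgeR adjusted p = 3.41e-06). Psmb9, which shares the promoter region with Tap1, had 3.001 and 3.85 CPM in TUBO and 0.890 and 1.16 CPM in early lesion (1.75 ± 0.44, adjusted p = 0.0211). In DCC control against TUBO, Psmb8 was lower (-4.44 ± 0.29) and Psmb9 was not called (-0.03 ± 0.40). Tap1 and Tap2, the genes on both sides of Psmb8, were 2.33-fold and 1.92-fold higher in TUBO than in early lesion; the difference between these changes and that of Psmb8 was not tested.

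Lists that share a function with single members were counted in DCC IFN-gamma against DCC control as well. Of 16 genes of ER glycoprotein folding, where calreticulin and ERp57 also work, 0 were called higher (2 at an unadjusted p under 0.05, 1 in DESeq2) and 2 lower, with a median log2 fold change of -0.09. Among all genes tested, 12.6% were called higher and 8.83% lower, so the count of lower genes is near that background. The lower ones were Ganab (-0.75 ± 0.17), a glucosidase that prepares glycans for calreticulin, and Ero1l (-0.80 ± 0.23), an ER oxidase. Canx had 0.02 ± 0.16, with a sign that turned under other scaling, and Hspa5 had 0.33 ± 0.27. These 16 genes summed to 4097 and 6843 CPM in DCC IFN-gamma and 5152 and 5307 CPM in DCC control, so that replicate 2 of DCC IFN-gamma was the high one here as it was for Calr and Pdia3. The count of lower genes was 6 without DCC IFN-gamma replicate 2, 1 (with 4 higher) without DCC IFN-gamma replicate 1, 1 without DCC control replicate 1 and 0 without DCC control replicate 2.

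The counts in the last lists stand beside the same background of 12.6% higher and 8.83% lower, and with 10 genes each they are too small to be set apart from it. Of 10 cytosolic and other peptidases, 2 were called higher and 0 lower (0 at an unadjusted p under 0.05 and 0 in DESeq2), with a median log2 fold change of 0.08. Lap3, a leucine aminopeptidase, had 0.96 ± 0.16, and Tpp2 had 0.47 ± 0.15. The Tpp2 call was lost on leaving out any library but DCC IFN-gamma replicate 2. Upper quartile factors (edgeR adjusted p = 0.198), testing without a filter (0.0757), a replicate block (0.0549) and the fit of the 2 groups alone (0.0896) also lost it. With upper quartile factors, the block or the fit of the 2 groups alone, 1 peptidase stayed called. Of 10 other ABC transporters, 1 was called higher, the drug and glutathione conjugate exporter Abcc1 (1.52 ± 0.15), and 3 lower, with a median of -0.00. Abcb9, the closest relative of TAP, had -2.66 ± 0.76 from means of 0.319 CPM in DCC IFN-gamma and 2.08 CPM in DCC control, and Abcb6 (-1.09 ± 0.29) and Abcb8 (-0.995 ± 0.25) were the other two. The Abcb9 call was lost without DCC IFN-gamma replicate 2 (-1.96, edgeR adjusted p = 0.139), DCC control replicate 1 (0.15) or TUBO replicate 2 (0.0733) and in the fit of the 2 groups alone (0.0813). The Abcb6 call was lost without DCC IFN-gamma replicate 1 (0.0556) or DCC control replicate 1 (0.176) and in the fit of the 2 groups alone (0.0586). The count of lower ABC transporters was 1 without DCC control replicate 1, and 3 were called higher when either early lesion library was left out.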

How the data were processed

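Raw counts per gene were deposited by the authors as 1 table. Per the submitters' processing notes, the tools included TopHat and HTSeq 0.6.1 with the build mm10. Per the labels' protocols, total RNA came from RNeasy Mini columns and libraries from a Nugen Ovation kit for mouse. Annotation and strand setting are not given in the sources used here. Lines of the table that name no gene held 35.2% to 63.7% of reads and were left out of library sizes and tests.

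From the deposited counts, CPM used TMM library sizes. The test was edgeR 4.0.16 (R 4.3.3, robust quasi-likelihood) with 4 group means over 8 libraries, 4 residual degrees of freedom and 17069 genes kept by filterByExpr (minimum count 10); the common biological coefficient of variation was 0.416. Standard errors are the log2 fold change over the square root of F. The steps were run on simulated data with a smaller spread than these libraries have, so that run does not measure how reliable the calls are here. A floor of 3 counts corresponded to between 0.0953 and 0.183 CPM and covers counting error only. Levels of different genes used CPM per kb of merged GENCODE M21 exons. Correlations used log2 CPM with a prior count of 2.

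The 7 genes and all lists were chosen with earlier results of these data known. The rule named the 7 genes, up to 3 called genes per list with the largest change, a panel (Nlrc5, Irf1, B2m, H2-K1, H2-D1, Psmb8, Psmb9, Canx, Hspa5) and, for each of the 7, the 3 genes of highest correlation without predicted names. Some genes that the rule names were left out and are not reported here. Motifs, neighbouring genes and Cast were chosen after values were seen. Alternatives were size factors by RLE or by upper quartile, testing without a filter or with 50 counts required in 2 libraries, a replicate block, DESeq2 1.42.0, fits of the 2 groups alone, each library left out, and DCC control replicate 1 with early lesion replicate 2 left out. Added after seeing the data were a block with early lesion numbers crossed, the longest transcript as length, and all alternatives for list genes.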

Additional observations from a re-analysis of the deposited data

How the results depend on the processing

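Over 6 comparisons, 7 genes and 17 alternatives, 655 of 714 results kept direction and side of the threshold, 23 lost a call, 21 gained one and 15 turned sign, none of them called before. The 5 calls of DCC IFN-gamma over DCC control held in all 17, with adjusted p up to 9.95e-04 (Tap2). Leaving out 1 library gave 1193 to 2500 genes higher and 827 to 1628 lower in that comparison, 2303 to 3480 and 2396 to 3801 in DCC control against early lesion, 2790 to 3978 and 2628 to 3816 in DCC control against TUBO, 1036 to 2522 and 1278 to 2861 in TUBO against early lesion, 3091 to 3847 and 2639 to 3237 in DCC IFN-gamma against early lesion, and 3238 to 4158 and 2542 to 3261 in DCC IFN-gamma against TUBO. Of the 7 genes it gave 5 to 7 higher and 0 lower in the first comparison, 1 to 2 and 2 to 4 in the second, 0 to 1 and 2 in the third, 1 to 2 and 0 to 3 in the fourth, 5 and 0 to 2 in the fifth, and 5 to 7 and 0 in the sixth.

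Without both DCC control replicate 1 and early lesion replicate 2, 1017 genes were higher and 637 lower in DCC IFN-gamma against DCC control, 2054 and 2058 in DCC control against early lesion (1 of the 7 genes higher), and 793 and 1151 in TUBO against early lesion (1 of the 7 higher, 0 lower). This leaves fewer samples, and other causes were not tested. DESeq2 had 2272 genes lower in DCC IFN-gamma against DCC control, where the main test had 1508, and gave no adjusted p for 7730 genes; the cause was not tested. In DCC control against TUBO, 1 of the 7 (Pdia3) was higher with upper quartile factors, no filter, DESeq2 and the fit of the 2 groups alone. P-values without a filter are doubtful. In DCC IFN-gamma against DCC control, the edgeR adjusted p of Calr was then far smaller (0.00165, against 0.125 in the main test). The Tpp2 call was instead lost (0.0757).

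Signs turned for Tap1 in DCC control against TUBO (0.0245 with RLE, 0.0733 with upper quartile factors, 0.0129 with the filter of 50 counts, 0.0234 in DESeq2, -0.0652 to 0.0577 on leaving out a library) and for Canx in DCC IFN-gamma against DCC control (-0.0018 with RLE, -0.18 with upper quartile factors, -0.0289 with the filter of 50, -0.0014 in DESeq2, -0.0246 to 0.11 on leaving out a library). Leaving out 1 library gave -0.11 to 0.60 for Pdia3 and -0.13 to 0.70 for Hspa5 in DCC IFN-gamma against DCC control, -0.44 to 0.19 for Tap2, -0.0233 to 0.27 for Tapbp and -0.0833 to 0.19 for Calr in DCC control against TUBO, -0.27 to 0.24 for Erap1 in TUBO against early lesion, and -0.998 to 0.17 for Calr and -0.67 to 0.12 for Pdia3 in DCC IFN-gamma against early lesion. The signs of Pdia3 and Hspa5 in DCC IFN-gamma against DCC control, and of Calr and Pdia3 in DCC IFN-gamma against early lesion, rested on 1 library: each passed the threshold without 1 DCC IFN-gamma replicate and had the opposite sign without the other. Where 1 library is left in a group, it is assumed to vary like the others. Upper quartile factors moved the median log2 fold change of all genes in DCC IFN-gamma against DCC control to -0.40.

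Replicate numbers did not pair the samples: deviations of same-numbered libraries correlated at -0.43 between DCC control and early lesion and at -0.05 to 0.10 elsewhere. A replicate block gave 2061 genes higher and 1420 lower in DCC IFN-gamma against DCC control and left 1 of the 7 genes lower in TUBO against early lesion; with the early lesion numbers crossed the counts were 2004 and 1382, and the counts of the 7 genes were those of the main test.

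With the longest transcript as length, Calr (359 CPM per kb) came above Pdia3 (353) and Erap1 (11.5) above Tapbpl (10.2) in early lesion. Depth limits Tapbpl in DCC control, which rests on 44 and 57 reads, and 2 libraries a group leave every standard error imprecise.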
